A study of Caenorhabditis elegans with 2 samples.

Results

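Of the 4116 CEC-7 peaks in the deposited list, 991 (24.1%) were peaks of 5000 bp or less that stood in tight runs. A run was a chain of 3 or more peaks on a chromosome in which each peak began within 1000 bp of the end of the one before, edge to edge. Chaining used the full list, so a run could also hold peaks wider than 5000 bp, here called broad, but these were not counted as members. Of the 321 runs found, 319 held at least 1 member and 2 were made of broad peaks alone. The runs held 1155 peaks, of which 164 were broad. Members were therefore chosen by position and width in the same list that gives their scores, and all values below are a description with no test.

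The peaks came from chromatin immunoprecipitation followed by sequencing (ChIP-seq) of CEC-7, the product of Y37D8A.11, in Caenorhabditis elegans hermaphrodites of the strain fem-2(b245), genotype fem-2(b245)III, kept at 20 °C. The stage label reads "Germline containing young adult", whereas the growth protocol describes gravid adults, which carry embryos. The antibody was an affinity-purified rabbit polyclonal (SDQ5421). Besides the single ChIP library there was 1 input library, and worms of this strain gave both, so each carried the fem-2 mutation. The list of the ChIP library was the only file used here. Whole animals were ground, so germ line, soma and any embryos contribute to each peak together, and a larger share of occupied cells cannot be told apart from stronger occupancy per cell.

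Chromodomain proteins carry a fold that in several members binds methylated lysines on histone tails. Such marks can lie over whole genes or gene clusters, and proteins that bind them are often found over kilobases of chromatin and not at single short sites. The fem-2 gene encodes a phosphatase of the sex determination pathway that promotes male fates. A peak caller such as MACS reports each interval of excess reads as a separate entry, so a stretch of chromatin can appear in a list as 1 wide peak or as several narrow ones with gaps between them.

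Most runs were short in number but long in sequence. Of the 321 runs, 198 (61.7%) held 3 peaks, 80 held 4, 27 held 5, 11 held 6, 3 held 7, 1 held 8 and 1 held 11. The median run spanned 10.3 kb from the start of its first peak to the end of its last, with quartiles of 7.45 and 15.4 kb and extremes of 3.91 and 38.4 kb. In all, 169 runs spanned more than 10 kb and 30 more than 20 kb. For scale, single broad peaks had a median width of 6.61 kb and members one of 2.04 kb. A run joins at least 3 peaks with their gaps, and 120 of the 321 held a broad peak, so the rule itself makes runs long.

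The share of a run inside peaks is partly set by the rule, which caps each gap at 1000 bp. Its median was 95.8% with a largest gap of 500 bp and 87.0% with one of 2000 bp. In the median run 92.4% of the span lay inside peaks (quartiles 87.7% and 95.4%), and 91 runs had more than 95% inside peaks, whereas 19 had less than 80%. Summed over all runs, 3.45 Mb of 3.75 Mb lay inside peaks, 91.9% of the span. Members covered 2.27 Mb, which is 18.0% of the 12.6 Mb covered by the whole list. With the broad peaks beside them, the runs held 27.4% of all covered bases.

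The run with the most peaks lay on chromosome I (3567826 to 3596682) and placed 11 members, none of them broad, in 28.9 kb. Scores, the peak caller's own values in a unit that was not stated, climbed from 70.5 at its first peak through 188, 369, 295 and 560 to 1106 at the sixth. They then went down through 468, 156 and 135, rose to 453 at the tenth peak and ended at 82.5. The peak with the highest score was also the widest, 4.46 kb, and the outermost peaks were the narrowest, 1.16 and 1.11 kb. Inside this run 91.1% of the bases lay in peaks.

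The next run by number, on chromosome III (11752202 to 11774449), placed 8 members in 22.2 kb. Its first peak scored 50.2, close to the lowest score of the list, 50, and its highest, the third peak, scored 817. A run of 7 on chromosome III (11141768 to 11162749) also had its highest score, 633, in the interior and its lowest, 51.2, at the last peak. In both runs an outermost peak had the lowest score.

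The runs of 7 on chromosomes II and IV and the leading run on V differed in the height and order of their scores. A run of 7 on chromosome II (7852206 to 7878952) began with a broad peak of 5.24 kb and a score of 951. Members of low and high score then alternated, with 83.3, 635, 86.2 and 595, before the run ended with 433 and 667. The run of 7 on chromosome IV (12658086 to 12673646) had lower scores throughout, from 55.0 to 266 over 15.6 kb. The start of the next run lay 1836 bp beyond its end. On chromosome V the run with the most peaks held 6 (16801521 to 16812291) in 10.8 kb, with scores of 410 at its second peak and 67.5 to 115 at the others.

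Of the 11 runs with 6 peaks, 5 held at least 1 broad peak and 6 held none. The 5 that spanned the most sequence, which a broad peak lengthens, were those with a broad peak, and 3 of them lay on chromosome III. The run at 10418716 to 10445196 on III was high over its whole length. Its scores lay between 501 and 1344, its 4 members scored 501 to 695, and 97.4% of its 26.5 kb was inside peaks. The run at 13499001 to 13522452 on III, the last on that chromosome, went from 1307 at a broad first peak to 99.1 at the fourth and back to 418 at a broad last peak. The run at 8745508 to 8767501 on III set a member of 60.6 between a broad peak of 949 and a member of 868. On chromosome I, the run at 4168844 to 4196352 held a broad peak of 12.8 kb with a score of only 149, less than the scores of 276 and 295 at 2 narrower members of the same run. On chromosome II, the run at 12128590 to 12149054 had its highest score, 1461, at a broad inner peak, and its members scored 63.8 to 222.

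**Figure D1:**
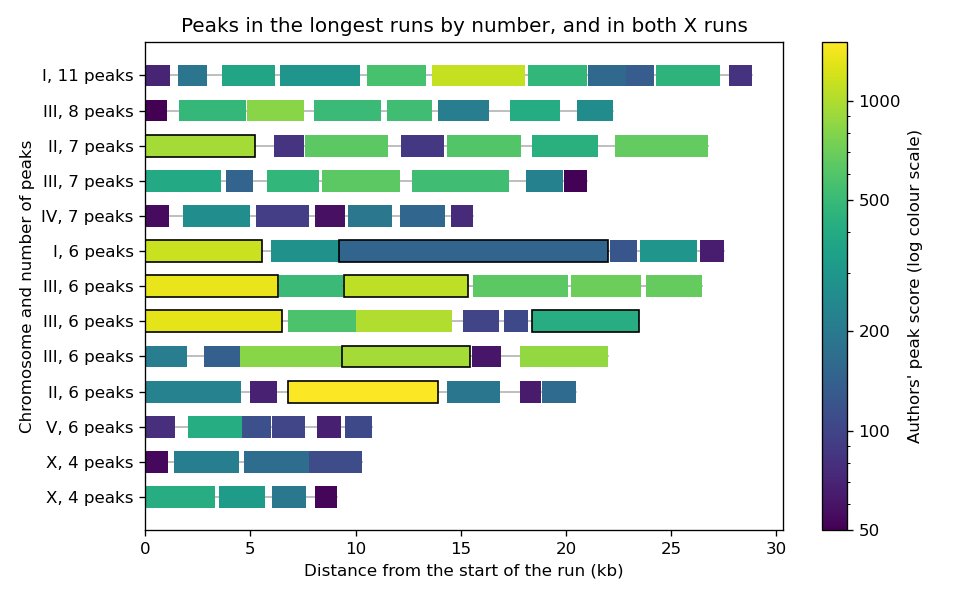
Peaks in the 5 runs of 7 or more, the 5 of the 11 runs of 6 with the longest span, the run of 6 on chromosome V and both runs on X, drawn to scale from the start of each run (kb) and coloured by the authors' score on a log scale; a black outline marks a peak wider than 5000 bp. The run of 11 on chromosome I is highest at its sixth peak, with 1106, whereas the run of 7 on chromosome II alternates between low and high scores.

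The longest runs by span were mostly built on broad peaks. The longest of all, on chromosome I (5101248 to 5139625), covered 38.4 kb with 5 peaks, of which 4 were broad, and its single member scored 537. The next, on I (4597282 to 4629897), covered 32.6 kb with 4 broad peaks that scored 794 to 1891, and its single member, at the right edge, scored 570. On chromosome III (5148142 to 5180386), 3 peaks spanned 32.2 kb, and the single member, in the middle, scored 1107 between broad peaks of 151 and 333. That member, 4.27 kb wide, had the highest score of any member on chromosome III. The run at 7915975 to 7944951 on I, 29.0 kb long, held 2 broad peaks, 1 of them 15.2 kb wide with a score of 172, and 3 members of 172 to 602.

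Among the runs of 6 or more, the most tightly packed were the chromosome III run from 10418716 with 97.4% inside peaks, the chromosome I run from 4168844 with 96.9% and the chromosome III run from 13499001 with 94.5%. The most loosely packed were a run of 6 on III (12731053 to 12744217) with 81.5%, a run of 6 on I (3213639 to 3228497) with 82.5% and the run of 8 on III with 84.2%. All 3 tight runs held 2 broad peaks each and all 3 loose ones held none. Since the rule caps each gap at 1000 bp, a broad peak itself raises the share inside peaks.

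Broad peaks divided the runs into a larger and a smaller class. In 201 runs every peak was a member, and 120 runs (37.4%) held at least 1 broad peak. The median span was 8.06 kb without a broad peak and 16.0 kb with one, which itself lengthens a run. Members of runs with a broad peak were 2315 bp wide in the median with a median score of 212 (278 members), and those of runs without were 1912 bp wide with 171 (713 members). At like width the medians were closer than this in every class from 1000 to 4500 bp. Runs with a broad peak had the lower median in the classes from 1000 to 2500 bp and the higher one in the wider classes. Between 2000 and 2500 bp the median was 206 in runs with a broad peak and 212 in runs without, and between 3000 and 3500 bp it was 392 and 374. The medians were farthest apart in the widest class, 4500 to 5000 bp, with 689 (20 members) and 564 (19 members).

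That the gaps inside runs were short is set by the rule, which caps each gap. Their median moved with the cap, to 163.5 bp with a largest gap of 500 bp and to 462 bp with one of 2000 bp. With the limit used here it was 298.5 bp over 834 gaps, with quartiles of 119 and 569.5 bp. Of these gaps 92 (11.0%) were shorter than 50 bp, 172 (20.6%) shorter than 100 bp and 577 (69.2%) shorter than 500 bp. The smallest, a single base, lay on chromosome II before a peak at 4332852 in a run of 5. The median was 290.5 bp in runs of 3, 319.5 bp in runs of 4 and 289.5 bp in runs of 5, so gaps in longer runs were not tighter. Pairs of peaks, which the rule leaves out, had a median gap of 307 bp over 547 gaps, and 19.9% of these were shorter than 100 bp. Gaps between 2 members had a median of 284 bp and gaps next to a broad peak 313 bp.

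The limit of 1000 bp fell on no break in the list. Over all neighbouring peaks the number of gaps per 100 bp went down steadily, from 281 below 100 bp to 125 between 400 and 500 bp and 68 between 900 and 1000 bp, and 69 gaps lay between 1000 and 1100 bp. The largest gaps that still joined peaks measured 998, 999 and 1000 bp, of which the last belonged to a pair, and each of the 3 smallest that did not was a single base longer than the limit. For width, the widest members measured 4938, 4950 and 4997 bp, with scores of 1008, 722 and 1241. The narrowest peaks of runs that were too wide to count measured 5024, 5026 and 5041 bp, with scores of 206, 483 and 644.

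**Figure D2:**
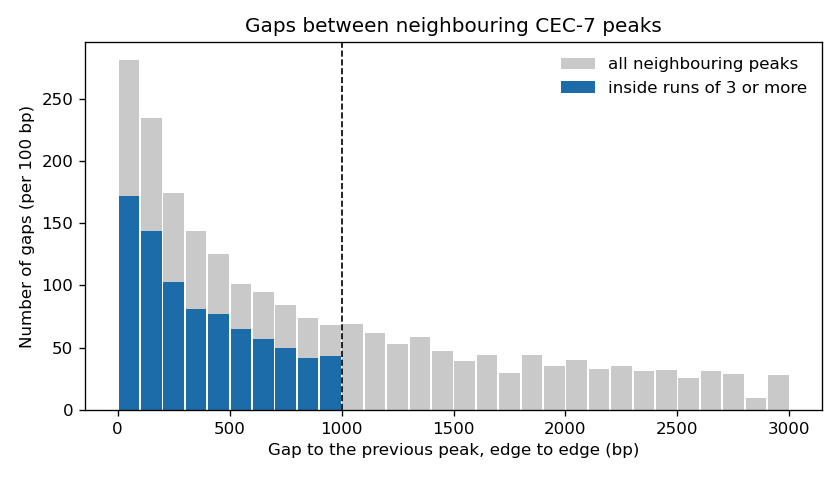
Number of gaps between neighbouring CEC-7 peaks per 100 bp of gap length, for all neighbours (grey) and for gaps inside runs of 3 or more (blue, in front); gaps over 3000 bp are not drawn. The counts go down from 281 below 100 bp to 68 just below the limit of 1000 bp (dashed), and show no step there.

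Beyond their edges, runs lay at widely differing distances from further peaks. Of 639 distances from a run to the next peak on either side, all over 1000 bp by the rule, 122 (19.1%) were 2000 bp or less, and the median was 7473 bp. At the other end, 204 (31.9%) were longer than 20 kb. The median distance from a run to the next run was 130 kb, and 90 runs (28.0%) had another run within 20 kb.

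The place of a peak in its run made little difference to its width or score. The 446 inner members had a median width of 2089 bp (quartiles 1424 and 2944 bp), and the 545 outermost members 1996 bp (1410 and 3101 bp). Median scores were 185 (102 and 369) for inner and 175 (90.7 and 327) for outermost members. These differences, 93 bp and 9.24 score units, were small beside the quartile ranges. Their sign was not stable: inner minus outermost was -69 bp and -0.105 score units with a largest gap of 2000 bp, -81.5 bp and -0.67 with no width limit, and -358 bp and -25.9 among peaks at or above the median score of the list. First and last members were also alike, with median widths of 2105 and 1960 bp and median scores of 180 and 175. With broad peaks included, the medians were 209 for inner and 209 for outermost peaks, and 13.1% of the inner against 15.1% of the outermost peaks were broad.

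In the 198 runs of 3, the middle peak scored below both of its neighbours in 65 (32.8%) and above both in 67 (33.8%), where equal places would give 33.3% for each. It was narrower than both in 64 runs and wider than both in 61. The highest score of a run of 3 fell on the first peak in 67 runs, the middle in 67 and the last in 64. Over runs of all lengths, the highest score belonged to an inner peak in 127 (39.6%), where equal places would give 41.5%, to the first peak in 98 and to the last in 96. The rise towards the interior in the run of 11 on chromosome I was therefore not the usual shape.

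Longer runs varied more by place, on few runs. In the 80 runs of 4, the highest score fell on the last peak in 29 (36.3%), on the third in 23, on the first in 16 and on the second in 12 (15.0%). Median scores of the members by place were nevertheless close, from 177 at the first to 201 at the third. In the 27 runs of 5, the first and the fourth place each held the highest score in 9 runs and the second in 2. Members in first place of such runs had a median width of 3111 bp (21 members) and those in last place 1881 bp (25 members). In the 11 runs of 6, the highest score was first in 5 and at the fifth or last place in 0.

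**Figure D3:**
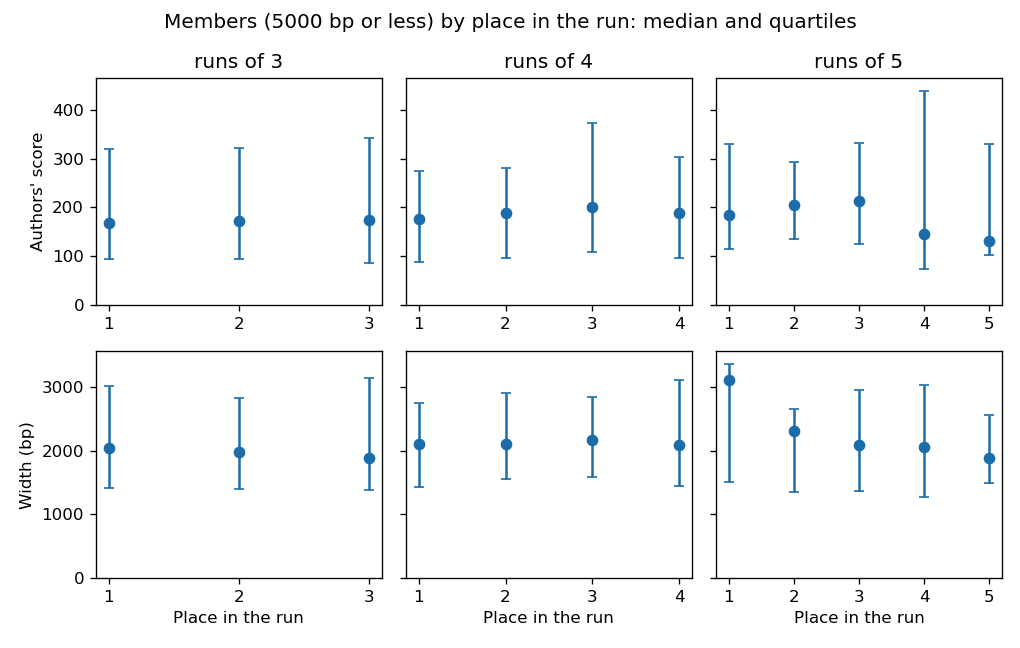
Median and quartiles (bars) of the authors' score (upper row) and of width in bp (lower row) for members by place in runs of 3, 4 and 5 peaks. In runs of 3 the median scores are 167, 173 and 175 from first to last, within quartile ranges that overlap almost wholly.

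Scores of neighbouring members were almost unrelated. Over 631 neighbouring member pairs in runs, the Spearman correlation was 0.05 for scores and 0.06 for widths, a description over pairs that share a library and partly share peaks. Neighbours of 5000 bp or less that lay more than 1000 and up to 5000 bp apart had 0.11 for scores (806 neighbours), and those over 20 kb apart had 0.02 (682 neighbours). With broad peaks included, the correlation inside runs was 0.14 (834 neighbours). The median difference between the highest and the lowest score of a run, broad peaks included, was 388. In 77 runs (24.0%) a peak under 100 stood in the same run as a peak over 500, whereas 3 runs stayed under 100 throughout and 6 over 500. These counts also include broad peaks, and the score quartiles of the whole list were 99.3 and 431, so such mixtures are no trait of runs alone.

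Scores were compared with those of the 1568 lone peaks, which are peaks of 5000 bp or less with no neighbour within 1000 bp. Members had a median score of 179 (quartiles 94.0 and 334) and lone peaks 155 (86.8 and 302), with 164 for the 926 peaks of 5000 bp or less in pairs. The lowest member scored 50.1 and the highest 1996. Median widths were nearly the same, 2041 bp for members and 2006 bp for lone peaks. Of the members, 461 (46.5%) reached the median score of the whole list, 196, against a background of 42.6% among all peaks of 5000 bp or less. The upper quartile of the list, 431, was reached by 173 members (17.5%) against a background of 15.4% among peaks of 5000 bp or less. Both shares lay near their background, which includes the members themselves. Among lone peaks they were 40.3% and 14.5%. The difference of median scores, members minus lone peaks, was 23.9, with a summed interval of 5.3 to 48.9 that treats peaks as independent. It was not stable under all alternatives, with -1.95 to 38.9 for a largest gap of 2000 bp.

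Score rose with width, with a Spearman correlation of 0.83 over the 991 members and 0.78 over the 1568 lone peaks, so scores were also set side by side in width classes of 500 bp. From 1000 to 1500 bp the medians were close, 78.3 for 279 members and 78.1 for 427 lone peaks. Every class above that had the higher median in the runs. From 2000 to 2500 bp it was 209 against 186. From 3000 to 3500 bp it was 382 (quartiles 266 and 484) against 332 (237 and 413), and from 3500 to 4000 bp it was 515 (391 and 635) against 413 (298 and 580). Averaged over classes with the members as weights, the difference was 30.7 score units, and the quartile ranges overlapped in every class. Summed from the 95% intervals of the medians, the range of this average ran from -23.7 to 73.7. It lets every class err in the same direction, so for independent peaks it is wider than a 95% interval of the average. That it included no difference therefore does not decide whether there was one. By autosome this average ranged from 13.6 for IV to 39.5 for I, with 21.3 for V, 26.4 for III and 31.0 for II. When each autosome was cut into 3 equal segments, it reached 27.5 for the central ones and 30.6 for the outer ones. The ranges of these values by autosome and segment were built in the same way and decide no more, so their order was not settled.

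**Figure D4:**
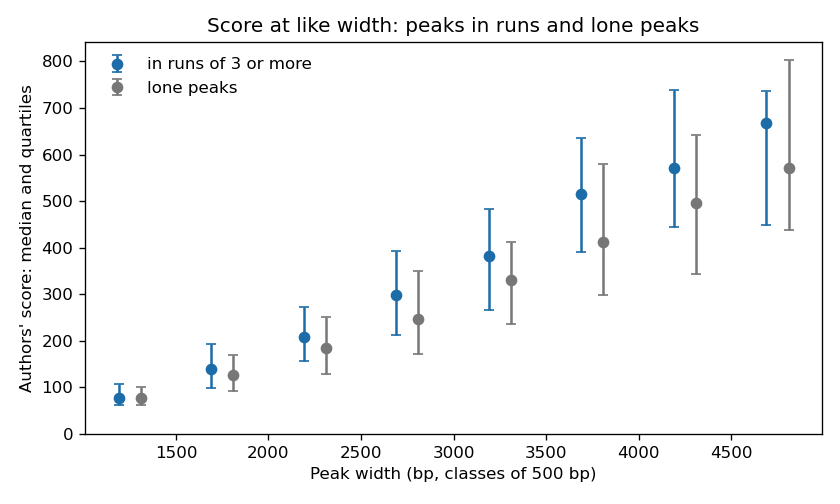
Median and quartiles (bars) of the authors' score by peak width in classes of 500 bp, for members of runs (blue) and lone peaks (grey). The medians are 78.3 and 78.1 in the narrowest class drawn and 515 and 413 between 3500 and 4000 bp, with overlapping quartiles throughout.

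Runs were found on all 6 chromosomes, but not at the same rate. Of all peaks of 5000 bp or less, 28.4% were members. The share was 29.9% on chromosome I, 31.0% on II, 30.7% on III and 30.1% on IV, which is close to that background, but 17.7% on V, where 89 of 503 such peaks stood in runs. On X it was 20.5%, or 8 of 39 peaks. Peaks of 5000 bp or less were also sparser there, with 24.1 per Mb on V and 2.25 on X against 40.4 to 56.4 on the other autosomes, and the part of this density in the share of peaks in runs was not tested. By number the members lay as 248 on I, 238 on III, 212 on IV, 196 on II, 89 on V and 8 on X. Chromosome V thus held 8.98% of the members and 18.6% of the lone peaks, whereas III held 24.0% and 19.1%.

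Per length, chromosome III had the most runs, 5.96 per Mb, followed by I with 5.18, II with 4.26, IV with 3.84, V with 1.295 and X with 0.12. Runs spanned 7.93% of III, 6.81% of I, 4.82% of II, 3.63% of IV, 1.18% of V and 0.11% of X. Chromosome IV had many small runs. Their median span was 8.22 kb, and 23.9% of them held a broad peak, against 12.0 kb and 51.2% on III. Chromosome V was similar to IV in this respect, with 9.16 kb and 18.5%. The median score of members went from 201 on I and 193 on III to 178 on II, 176 on IV and 133 on V. Lone peaks on V had nearly the same median, 134, although at like width members on V scored higher in 5 of the 7 width classes that held at least 5 peaks of each kind.

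Each chromosome had its own highest member. The one on I (3881028 to 3884895) had a width of 3.87 kb and scored 1996 in the third place of a run of 4. The one on V (18882120 to 18885122) had a width of 3003 bp and scored 1555 in the middle of a run of 5, although members on V were otherwise low. On II it scored 1151 (13206687 to 13210674) at the end of a run of 5, and on IV 976 (7780688 to 7785425) in the third place of a run of 4. The highest members on I, III, IV and V were inner peaks.

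Both runs on X held 4 members and no broad peak. The first lay near the left end (193839 to 202952), and its scores went down from 415 at the first peak, the highest member on X, to 322, 195 and 52.3 at the last. The second lay far from any other run (7351163 to 7361447) and scored 53.7, 210, 166 and 108. They spanned 9.11 and 10.3 kb, close to the median of all runs, and their scores lay inside the range of autosomal members.

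Along the autosomes, a smaller share of the members than of the lone peaks lay in the centre. The segments were equal parts of each chromosome up to the end of its last peak, and do not follow arm boundaries. The central segment held 25.4% of the 983 autosomal members, 32.3% of the 1541 lone autosomal peaks of 5000 bp or less, 29.0% of the peaks in pairs and 53.6% of the broad peaks. The order was not seen when the chains were built only from peaks at or above the median score of the list, which rebuilds both groups. The central share was then 37.7% for 159 members (exact binomial 95% interval 30.2% to 45.8%) and 35.4% for 981 lone peaks. The interval treats members as independent, although those of a run lie close together, so it is likely too narrow. Members were less often central than lone peaks on chromosome III, with 19.3% against 35.3%, on IV, with 24.5% against 34.1%, and on V, with 23.6% against 32.5%. On I and II the shares were close, 29.4% against 28.7% and 29.6% against 31.1%. Central members were wider and higher than outer ones, with medians of 2412 against 1900 bp and 214 against 173. Lone peaks showed the same order of scores, with 207 in the central and 139 in the outer parts.

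**Figure D5:**
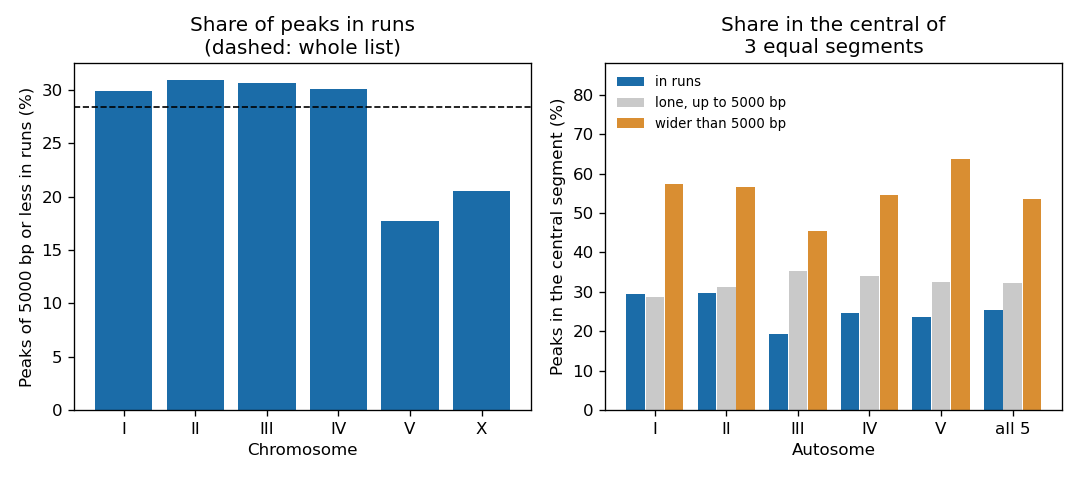
Left, percent of the peaks of 5000 bp or less that stood in runs, by chromosome, with the whole list's 28.4% as a dashed line. Right, percent of run members, lone peaks and broad peaks in the central of 3 equal segments of each autosome and of all 5 together; on chromosome III the shares are 19.3%, 35.3% and 45.5%.

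The number of runs differed between megabases. The 1 Mb window with the most runs was IV from 1 to 2 Mb, where 12 runs held 38 peaks, although IV as a whole had fewer runs per Mb than I, II or III. It was followed by I from 3 to 4 Mb with 11 runs and 48 peaks, which include the run of 11, and by III from 11 to 12 Mb with 11 runs and 43 peaks, which include the run of 8 and the run of 7. Of the 80 full autosomal windows 11 held no run, with 5 of them on V, 4 on IV, 2 on II and 0 on I and III. On X, where the whole list had 41 peaks, 15 of 17 full windows held none. All peaks per window were not counted, so the part of peak density in these numbers was not tested.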

How the data were processed

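Per the submitters' processing notes, BWA was the aligner and ce10 the genome build. Peaks were called with MACS on WormBase WS220, per the file headers. Not given in the sources used here were tool versions, read filters, duplicate handling and use of the input as control. Each row of the deposited list holds a 1-based start and end and a score, the authors' peak caller's own value in an unstated unit, from 50 to 3100, used only within the list. Read depth is unknown, and with 1 ChIP library no p-value or replicate spread is given, and intervals cover counting error only.

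Peaks were chained with a largest gap of 1000 bp, at least 3 peaks and a member width of at most 5000 bp. The code was tested on a simulated list with planted runs and on a short list with gaps at the limit. The members, the lists and the alternatives were chosen with earlier results of these data known. Runs and peaks named are the 10 with the most peaks (ties, here among 11 runs of 6, went to the longer span), the 5 longest, the run with the most peaks and the highest member of each chromosome, both X runs, the tightest and loosest 3 runs of 6 or more, and those at the limits. The smallest gap and the leading 1 Mb windows were chosen after their values were seen. Genes and sequence at the peaks were not analysed here. Tools were scipy 1.17.1, pandas 2.3.3 and numpy 2.4.6 under Python 3.11.15, and figures were drawn with matplotlib 3.10.9.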

Additional observations from a re-analysis of the deposited data

How the results depend on the processing

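Of 258 values recomputed under 14 alternatives, 206 stayed inside the interval of the value as reported or, for numbers of members and runs, within 1.5 times. Intervals were exact binomial for shares and medians, sums of these for differences and Fisher's for the correlation, treat peaks as independent, and cover counting error only. The others follow, and for those not set by the rule itself the cause was not tested. The width-class difference and the neighbour correlation were added to the list of results to be recomputed after seeing the data.

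With a largest gap of 500 bp there were 526 members (12.8% of the list) in 179 runs, with a median span of 9050 bp, a median gap of 163.5 bp and 95.8% of the span inside peaks; III held 19.4% and IV 24.5% of the members. With 2000 bp there were 1568 members (38.1%), with 11579 bp, 462 bp and 87.0%, and inner minus outermost medians turned to -69 bp and a score of -0.105. With at least 4 peaks there were 483 members (11.7%) in 123 runs of 14032 bp; the highest peak was inner in 48.8%, I held 28.6%, III 27.1%, IV 18.0%, V 7.04% and X 1.66% of the members, and 19.4% of the autosomal ones were central. With pairs counted there were 1917 members (46.6%) in 868 runs of 7106 bp, with 93.3% inside peaks, an inner highest peak in 14.6%, since pairs have no inner peak, and 11.0% on V. Without a width limit, members made up 28.1% of the list, with a median score of 209, 28.7% central and a neighbour correlation of 0.14, and inner minus outermost medians turned to -81.5 bp and a score of -0.67. When only peaks of 5000 bp or less were chained, the median span was 8167.5 bp, 90.5% of it was inside peaks, and 19.2% of autosomal members were central.

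Among peaks at or above the median score, 159 members (7.73%) were left in 70 runs of 14797.5 bp, with 94.7% inside peaks, a median score of 374, an inner highest peak in 27.1% and a difference of inner minus outermost median width of -358 bp and of median score of -25.9. Of these members I held 30.2%, III 34.6%, IV 14.5%, V 3.14% and X 0%, and 37.7% of the autosomal ones were central. Leaving out each chromosome in turn or the first 250 kb of each moved none of the values outside its interval or limit.

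Occupancy below the authors' cutoff, as in the gaps of a run, was not detectable. No paired analysis was possible because the ChIP had no replicate.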
